A study of Mus musculus with 4 samples.

Results

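The genes described are the 5 whose products carry the exchange of growth factors between a mouse oocyte and its follicle: the secreted ligands Gdf9, Bmp15, Bmp6 and Fgf8 and the receptor Kit. They were chosen by name for this role, not by a measured value, though earlier results of these data were known. They are 5 of the 17374 genes listed, with 15 of the 45505 transcripts listed. RNA-seq was carried out on 4 libraries of germinal vesicle (GV) stage oocytes from C57/Bl6/DBA2J F1 hybrid females that had received no hormone priming, taken on postnatal day 16. In 2 control libraries the oocytes were not irradiated. In 2 irradiated libraries the oocytes had been exposed in culture to 5 Gy of γ-irradiation from a Cesium-137 source (140 rad per min for 3.57 min) and were collected 24 h later. All oocytes had been freed of cumulus cells and held with milrinone, a phosphodiesterase inhibitor that keeps them from resuming meiosis. Each library is a pool of oocytes from 1 of 2 independent experiments, and the 59 oocytes of each condition may be per library or over both experiments, which the sources used here do not say. Granulosa cells, which receive the 4 ligands and make the ligand of Kit, had been removed by pipetting before lysis.

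GDF9 and BMP15 are secreted by the oocyte, belong to the transforming growth factor β (TGF-β) family, and act on granulosa and cumulus cells through type 1 and type 2 serine/threonine kinase receptors and the SMAD proteins. BMP6 is another oocyte ligand of that family, and FGF8 acts through receptor tyrosine kinases and is known to cooperate with BMP15 in promoting glycolysis in cumulus cells. In the reverse direction granulosa cells make KIT ligand, and KIT on the oocyte surface activates phosphatidylinositol 3-kinase (PI3K), AKT and FOXO3, the pathway that governs the awakening and growth of the oocyte.

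The estimated counts summed to between 33349466 and 37232818 per library, so that depth differed little. Irradiated library 2 stood apart. Its TMM factor, which rescales a library for its composition, was 1.19 and those of the other libraries lay between 0.923 and 0.975. It was the highest or the lowest of the 4 libraries in 73.6% of the 12569 genes tested, and control library 1, control library 2 and irradiated library 1 were so in 47.4%, 38.6% and 40.4% of genes. The difference between conditions is therefore given with and without this library for the 5 genes, the list medians, and the transcripts and partners whose log2 fold change is given. All 10 oocyte markers examined, Zp3 and Zp2 of the zona pellucida among them, were above 10 TPM, and their summed level was between 28306 and 30365 TPM per library. Of 12 granulosa and cumulus markers, 9 were listed, and their summed level was 17.8 and 20.2 TPM in the control and 17.6 and 24.5 TPM in the irradiated libraries. Among the granulosa markers Gja1 and Hsd17b1 had 3 counts or fewer in every library, Cyp19a1 was the highest at 9.53 TPM on average, and the part of such cells in the results was not tested. Of 9 markers of theca, stroma, endothelium and blood, 3 were listed, with a summed level between 3.94 and 5.95 TPM, nearly all of it Pecam1. Fewer transcripts per oocyte and fewer contributing oocytes cannot be told apart in pooled libraries.

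For 2 of the 5 genes the transcripts differ in a short coding stretch that alters the protein. The stretches are shown because reads over them help to separate the transcripts compared in the account of isoforms. They were read from GENCODE M21 transcripts of build GRCm38, 5′ to 3′ along the transcript, with the alternative stretch in capitals and the shared flanks in lower case. The Kit insert is 12 bases at the end of the ninth exon, chr5:75639147-75639158 on the plus strand, in the part that encodes the extracellular domain next to the membrane, and NM_001122733.1 has it and NM_021099.3 lacks it. The Fgf8 extension is 33 bases at the start of a coding exon, chr19:45741647-45741679 on the minus strand, present in NM_001166361.1 and NM_001166362.1 and absent from NM_001166363.1. It separates the form known as FGF8b, which binds its receptors more strongly, from FGF8a. The Fgf8 additional exon is 87 bases, chr19:45741911-45741997 on the minus strand, and is held by NM_001166361.1, the form known as FGF8f.
Kit insert: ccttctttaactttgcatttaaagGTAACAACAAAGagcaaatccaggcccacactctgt
Fgf8 extension: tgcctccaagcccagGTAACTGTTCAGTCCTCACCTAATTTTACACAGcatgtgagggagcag
Fgf8 additional exon: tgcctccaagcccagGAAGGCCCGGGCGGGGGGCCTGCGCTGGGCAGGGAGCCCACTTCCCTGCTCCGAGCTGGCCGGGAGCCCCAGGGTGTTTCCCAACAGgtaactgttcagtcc

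The first question was how abundant each message was. Levels between genes are compared in TPM, which corrects for transcript length and has the same total in every library, summed over the transcripts of a gene. Gdf9 was among the most abundant messages of the oocyte and ranked between 21 and 27 of 17374 genes in the 4 libraries. The gene (ID 14566) lies at 53430774 to 53437904 on chromosome 11 of GRCm38.p6, where its span overlaps that of Uqcrq. Its level was 5918 and 5582 TPM in the control libraries (1 and 2, in that order throughout) and 6980 and 4474 TPM in the irradiated ones. The irradiated libraries held both the highest and the lowest value, with the controls between them. The mean level was 5750 ± 238 TPM in control and 5727 ± 1772 TPM in irradiated oocytes (SD, n = 2 each).

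Bmp15, the partner with which GDF9 forms a heterodimer, is X-linked (ID 12155, chromosome X, 6314054 to 6320724) and has a single listed transcript. It ranked between 131 and 162. Its level was 1053 and 1284 TPM in the control libraries and 1179 and 900 TPM in the irradiated libraries. Irradiated library 2 was the lowest, and irradiated library 1 lay between the controls. The mean level was 1169 ± 163 TPM in control and 1040 ± 198 TPM in irradiated oocytes (SD, n = 2 each). The ratio of Gdf9 to Bmp15 in TPM was 5.62 and 4.35 in control and 5.92 and 4.97 in irradiated libraries. The conditions overlapped in this ratio (two-sided exact permutation test, p = 0.667).

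Fgf8 (ID 14179, chromosome 19, 45736491 to 45742941) ranked between 691 and 1021. Its level was 111 and 139 TPM in the control libraries and 120 and 215 TPM in the irradiated libraries. Irradiated library 2 alone was high, and irradiated library 1 lay between the controls. The mean level was 125 ± 19.6 TPM in control and 168 ± 67.0 TPM in irradiated oocytes (SD, n = 2 each). Bmp6 (ID 12161, chromosome 13, 38345716 to 38500314), which spans the widest region of the 4 ligands and overlaps 4930579J19Rik and Txndc5, was the least abundant of them. It ranked between 5162 and 5443. Its level was 5.29 and 5.64 TPM in the control libraries and 6.27 and 8.48 TPM in the irradiated libraries. Both irradiated libraries were above both controls, and irradiated library 2 was the highest. The mean level of Bmp6 was 5.47 ± 0.247 TPM in control and 7.38 ± 1.56 TPM in irradiated oocytes (SD, n = 2 each).

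Kit (ID 16590, chromosome 5, 75574987 to 75656722), the one receptor among the 5 genes, ranked between 3331 and 4081. Its level was 13.4 and 16.8 TPM in the control libraries and 13.9 and 14.6 TPM in the irradiated libraries. Both irradiated values lay between the controls. The mean level was 15.1 ± 2.36 TPM in control and 14.3 ± 0.509 TPM in irradiated oocytes (SD, n = 2 each). The order Gdf9, Bmp15, Fgf8, Kit, Bmp6 held in 4 of 4 libraries, and no neighbours in it overlapped. The lowest level of Gdf9, 4474 TPM, was above the highest of Bmp15, 1284 TPM, and the means of the 4 libraries differed 5.20-fold. The mean level of Bmp15 was 7.54 times that of Fgf8, and that of Fgf8 was 9.98 times that of Kit. Kit and Bmp6 were the closest neighbours, 2.29-fold apart, with a lowest level of 13.4 TPM for Kit and a highest of 8.48 TPM for Bmp6. The TGF-β family thus lay at both ends of the order.

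**Figure D1:**
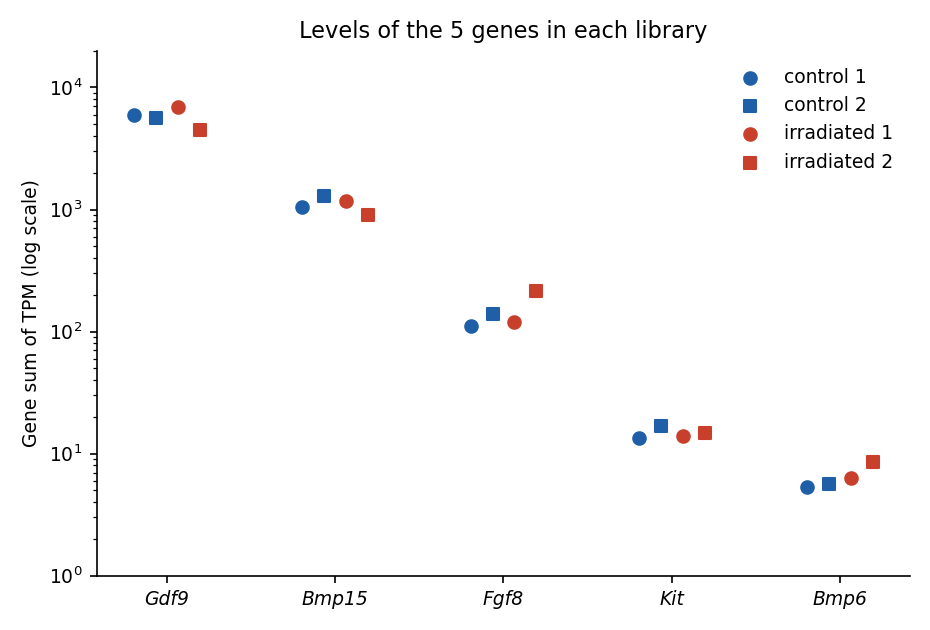
Level of each of the 5 genes as the gene sum of TPM on a log axis, with 1 point per library, control libraries in blue and irradiated libraries in red. Every library gives the order Gdf9, Bmp15, Fgf8, Kit, Bmp6; irradiated library 2 is the lowest point for Gdf9 (4474 TPM) and Bmp15 (900 TPM) and the highest for Fgf8 (215 TPM) and Bmp6 (8.48 TPM).

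The second question was whether the message of any of the 5 genes differed between irradiated and control oocytes. None was called at an adjusted p under 0.05 with a log2 fold change above 2 in size, in edgeR's quasi-likelihood test, and none reached an unadjusted p under 0.05. Over all genes tested, 0.00796% were called, a single gene of 12569 (Fermt1, named after its values were seen), and 5.92% had an unadjusted p under 0.05. With so few calls over all genes, the absence of a call is no result particular to these 5. The difference is given as a log2 fold change, irradiated minus control, of counts summed per gene and scaled by library size and TMM factor.

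Gdf9 had 262520 and 220778 estimated counts in the control libraries and then 285720 and 171118 in the irradiated ones, which were 7638, 6793, 8626 and 4183 in CPM, the scaled count relative to the library's total. Its log2 fold change was -0.17 (SE 0.428, 95% interval -1.19 to 0.84, edgeR adjusted p = 0.897). Without irradiated library 2 the difference turned to 0.26. Bmp15 had 84508 and 91600 counts in the control and 87061 and 62028 in the irradiated libraries, or 2459, 2818, 2628 and 1516 scaled CPM. For Bmp15 the log2 fold change was -0.35 (SE 0.338, 95% interval -1.15 to 0.45, edgeR adjusted p = 0.758), and without irradiated library 2 it was -0.0050. For the 2 most abundant ligands the whole of the lower mean was therefore in 1 library.

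Fgf8 had 2823 and 3153 counts in the control and 2825 and 4733 in the irradiated libraries, or 82.1, 97.0, 85.3 and 116 scaled CPM. Its log2 fold change was 0.17 (SE 0.190, 95% interval -0.28 to 0.62, edgeR adjusted p = 0.791), and without irradiated library 2 it turned to -0.070. Bmp6, with 407 and 386 counts in the control and 444 and 561 in the irradiated libraries, was at 11.8, 11.9, 13.4 and 13.7 scaled CPM. Here both irradiated libraries were higher than both controls. For Bmp6 the log2 fold change was 0.19 (SE 0.133, 95% interval -0.12 to 0.51, edgeR adjusted p = 0.714) and 0.18 without irradiated library 2.

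Kit had 1832 and 2030 counts in the control and 1749 and 1715 in the irradiated libraries, or 53.3, 62.5, 52.8 and 41.9 scaled CPM. Both irradiated libraries were lower than both controls on this scale, by a narrow margin for irradiated library 1, and they overlapped the controls in TPM. The log2 fold change of Kit was -0.29 (SE 0.167, 95% interval -0.69 to 0.11, edgeR adjusted p = 0.708), and -0.13 without irradiated library 2. The conditions thus did not overlap for 2 of the 5 genes, Bmp6 and Kit, a pattern found in 41.9% of all genes tested (22.1% with the irradiated libraries higher, as for Bmp6, and 19.9% lower, as for Kit).

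The intervals give the differences compatible with these libraries under edgeR's model, not the smallest difference that could have been detected. For Bmp6 they leave out a rise beyond 0.51 and for Kit a drop beyond -0.69 on the log2 scale, and they are widest for Gdf9 and Bmp15, the genes with the most counts, for which the irradiated libraries lay far apart. Irradiated library 2 was the highest of the 4 for Fgf8 and Bmp6 and the lowest for Gdf9, Bmp15 and Kit in scaled CPM, that is an extreme in 5 of 5 genes, beside 73.6% of all genes. Against the controls, irradiated library 2 alone gave log2 fold changes of -0.80 for Gdf9, -0.81 for Bmp15, 0.36 for Fgf8, -0.48 for Kit and 0.20 for Bmp6. The first 4 of these passed the adjusted p of edgeR (4.64e-07, 3.83e-09, 0.000600 and 1.32e-05) but not the fold limit, in a fit that assumes that the lone library varies like the controls and in which 34.3% of the 13011 genes tested passed the adjusted p.

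**Figure D2:**
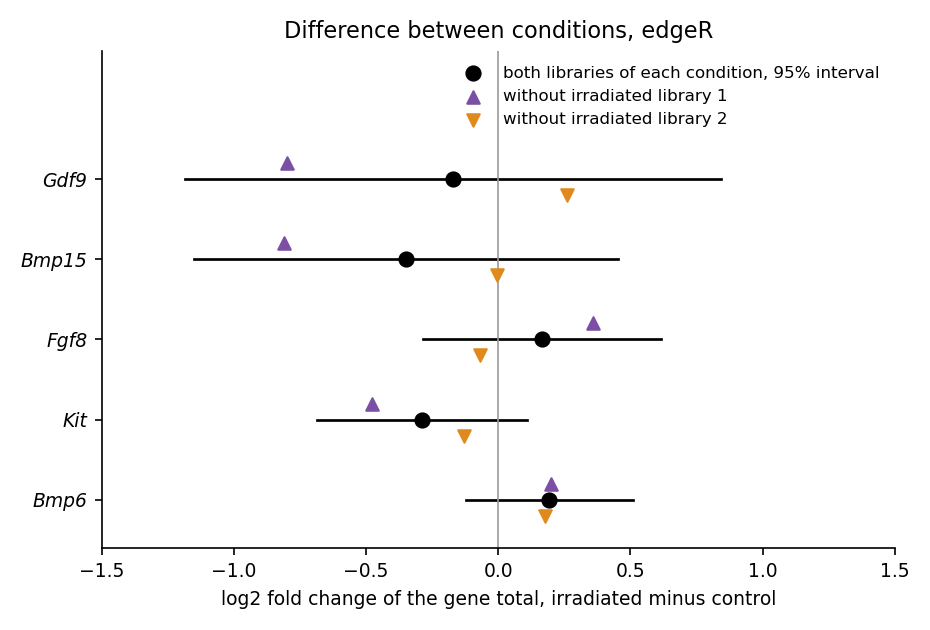
Difference between conditions for each gene as a log2 fold change of summed counts, irradiated minus control, with black points and 95% intervals for both libraries of each condition and triangles for fits that leave out 1 irradiated library. All 5 intervals cross 0; Gdf9 goes from -0.80 to 0.26 and Bmp15 from -0.81 to -0.0050 depending on which irradiated library is left out, and Bmp6 stays between 0.18 and 0.20.

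The third question was whether the transcripts of a gene kept their shares of its counts, which bears on the form of protein encoded. Both Kit transcripts were found in every library. NM_001122733.1, with the 12-base insert, had 687 and 630 counts in the control and 1090 and 628 in the irradiated libraries, and NM_021099.3, without it, had 1145, 1400, 658 and 1087. The share of Kit counts with the insert was 37.5% (95% Wilson interval 35.3 to 39.7) and 31.0% (29.1 to 33.1) in the control libraries. It was 62.3% (60.0 to 64.6) and 36.6% (34.4 to 38.9) in irradiated libraries 1 and 2. The form without the insert was the more abundant in 3 libraries, and irradiated library 1 was the one in which the form with the insert prevailed.

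The mean share with the insert was 34.3% ± 4.58 in control and 49.5% ± 18.2 in irradiated oocytes (SD, n = 2 each). The difference of 15.2 percentage points was smaller than the spread between the irradiated libraries (two-sided exact permutation test, p = 0.667, where 2 against 2 libraries cannot give less than 0.333). Without irradiated library 1 it was 2.36 points and without irradiated library 2 it was 28.1 points. The Wilson intervals cover counting error only, and they are too narrow here. The coding parts of the transcript models differ in the 12-base insert alone, and reads common to both transcripts are shared out by estimation. The matched GENCODE transcripts are 5214 bases long with the insert and 5241 without it, so they also differ outside the coding part. The log2 fold change was 0.30 for NM_001122733.1 (SE 0.403, edgeR adjusted p = 1.00) and -0.70 for NM_021099.3 (SE 0.236, unadjusted p = 0.0449, edgeR adjusted p = 0.983), and without irradiated library 2 they were 0.75 and -0.94. Of 26645 transcripts tested 4.9% had an unadjusted p under 0.05 and 0% were called. The test of transcript usage within genes gave an adjusted p of 1.00 for Kit in edgeR, where 0.253% of 6323 genes were called and 6.12% had an unadjusted p under 0.05.

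Fgf8 was spread over 7 transcripts, 4 of them known (NM_) and 3 predicted (XM_). NM_001166361.1, with both the extension and the additional exon, was the most abundant in every library, with 1297 and 1570 counts in the control and 1155 and 1994 in the irradiated libraries. Its share of Fgf8 counts was 45.96% (95% Wilson interval 44.1 to 47.8) and 49.8% (48.0 to 51.5) in control and 40.9% (39.1 to 42.7) and 42.1% (40.7 to 43.5) in irradiated libraries. Both irradiated shares were below both controls. As for Kit, the Wilson intervals cover counting error only and are too narrow, because reads common to the 7 transcripts are shared out by estimation. As a share of Fgf8 TPM it differed by -6.33 percentage points, from 47.2% ± 2.60 to 40.9% ± 0.942 (SD, n = 2 each; two-sided exact permutation test, p = 0.333, the smallest this design can give).

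NM_001166362.1, the FGF8b form, had 441 and 469 counts in the control and 571 and 913 in the irradiated libraries. Its share was 15.6% (14.3 to 17.0) and 14.9% (13.7 to 16.2) in control and 20.2% (18.8 to 21.7) and 19.3% (18.2 to 20.4) in irradiated libraries, above both controls. These intervals too cover counting error only. Its log2 fold change was 0.56 (SE 0.197, unadjusted p = 0.0515, edgeR adjusted p = 1.00), and that of NM_001166361.1 was -0.022 (SE 0.247, edgeR adjusted p = 1.00). Without irradiated library 2 they were 0.34 and -0.30. NM_001166363.1, the FGF8a form, had 229, 295, 247 and 399 counts. Over the 4 NM_ transcripts, those with the 33-base extension held 86.3 and 85.3% of counts in the control and 84.5 and 85.6% in the irradiated libraries. The 87-base exon was in 64.4 and 65.7% of them in the control libraries, and in 56.6 and 58.7% in the irradiated ones. The extension was thus held at nearly the same share of these NM_ transcripts in all 4 libraries. The additional exon was at a lower share in both irradiated ones, with no call in the usage test (edgeR adjusted p = 1.00). The predicted transcripts were not examined for either stretch. How often shares separate the conditions in this way over all transcripts was not counted. For Gdf9, NM_008110.2, with a coding length of 1326 bases, held 99.3% of the counts in every library.

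**Figure D3:**
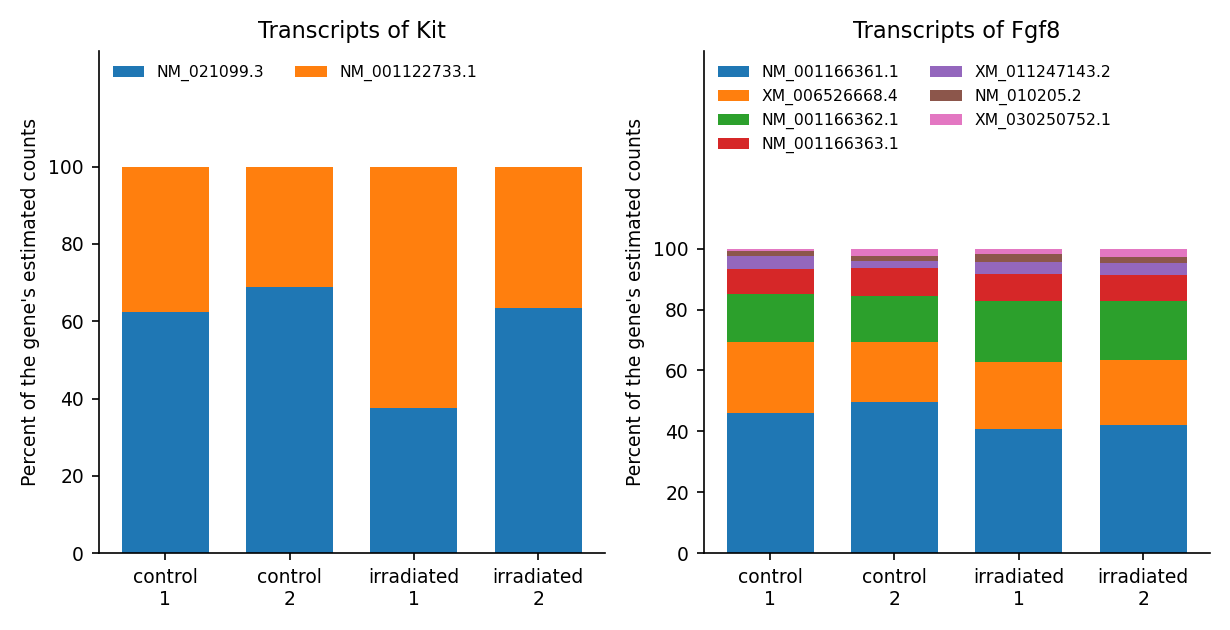
Percent of the estimated counts of Kit (left) and Fgf8 (right) assigned to each listed transcript, with 1 stacked bar per library. The Kit transcript with the insert, NM_001122733.1, takes 62.3% in irradiated library 1 and between 31.0 and 37.5% in the other 3; NM_001166361.1 is the largest part of Fgf8 in every library.

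The partners of the 5 genes were examined by role, from lists of their families and pathways. None of their genes was called, and counts of genes at an unadjusted p under 0.05 are given beside 4.63% higher and 1.29% lower over all genes. Of 26 other ligands of the TGF-β family, 17 were listed and 5 tested, with 0 at an unadjusted p under 0.05 and a median log2 fold change of 0.12 (0.085 without irradiated library 2). Tgfb2 was the highest of them, at 215 and 228 TPM in control and 202 and 147 TPM in irradiated libraries, so its level lay between those of Bmp15 and Fgf8 on average. Bmp5 followed with 24.8 and 27.6 TPM in control and 26.4 and 41.1 TPM in irradiated libraries, above the level of Bmp6. Tgfb3 was at 7.82, 7.62, 8.86 and 13.4 TPM, and Bmp7, the member with the smallest p, stayed under 1 TPM (log2 fold change 0.59, SE 0.285, unadjusted p = 0.0791, and 0.65 without irradiated library 2).

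Messages of receptors for these ligands were found at low levels that overlapped those of the granulosa markers. The highest of those markers were Cyp19a1, Nr5a2 and Fshr (means of 9.53, 4.93 and 2.25 TPM). The other granulosa markers listed had lower means, from Kitl (between 1.45 and 2.07 TPM in the libraries) down to Inhba (mean of 0.0175 TPM). Which cells the receptor messages came from was not tested. Of 13 receptors, 10 were listed and 9 tested, with a median log2 fold change of -0.11 beside 0.010 over all genes (-0.076 beside 0.0026 without irradiated library 2). Bmpr1b, a type 1 receptor used by BMP15, was the highest at 10.9, 12.0, 11.0 and 13.5 TPM in the 4 libraries, the controls first. Tgfbr3, a coreceptor, had a mean of 5.83 TPM, and Bmpr1a, a type 1 receptor, was at 4.14, 4.51, 4.10 and 5.58 TPM. Bmpr2, the type 2 receptor of GDF9 and BMP15, was at 2.91, 3.57, 2.81 and 2.89 TPM, with a log2 fold change of -0.40 (SE 0.167, unadjusted p = 0.0501, edgeR adjusted p = 0.708) and -0.22 without irradiated library 2. Tgfbr1, the type 1 receptor used by GDF9, lay between 2.35 and 2.75 TPM. Acvr1 and Acvr2a, which bind BMPs, had means of 0.92 and 1.02 TPM, and Acvr1b had the second smallest p of the list (log2 fold change 0.37, unadjusted p = 0.0863, and 0.39 without irradiated library 2).

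Among 8 SMADs, 6 were tested, with 0 at an unadjusted p under 0.05 and a median log2 fold change of 0.055, which was -0.0011 without irradiated library 2. Smad2, which together with Smad3 transmits GDF9 signals, was the highest at 13.1, 12.8, 13.2 and 16.8 TPM. Smad3 had a mean of 7.63 TPM and Smad4, the common partner, 2.23 TPM. Smad9 and Smad1 of the BMP branch had the smallest p in the list (0.110 and 0.324). Of 16 extracellular antagonists and related inhibitors, 9 were listed and 6 tested, with 0 at an unadjusted p under 0.05 and a median of 0.18 (0.13 without irradiated library 2). Dand5, a secreted antagonist of the family, led with a mean of 9.68 TPM, followed by Twsg1 with 2.54 and Bambi, a pseudoreceptor, with 1.75. Bambi and Fstl3 had the smallest p of the antagonists (0.115 and 0.2005).

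Furin, a protease that cleaves TGF-β family precursors to their mature ligands, was the 1 of 4 convertases tested that had an unadjusted p under 0.05. It had 129 and 143 counts in the control and 198 and 1396 in the irradiated libraries, or 1.18, 1.49, 1.98 and 14.98 TPM. Irradiated library 2 was far above the other 3. The log2 fold change of Furin was 2.30 (SE 0.704, unadjusted p = 0.0138, edgeR adjusted p = 0.708). The value was 2.18 without control library 1, 2.41 without control library 2 and 3.05 without irradiated library 1, but 0.55 without irradiated library 2. Each of these fits leaves 1 library in a condition, so its spread there is not measured. The median of the 4 convertases was -0.097 and turned to 0.085 without irradiated library 2. The related proteases Pcsk6 and Pcsk5 had means of 1.41 and 0.583 TPM.

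On the FGF side, Fgf8 was far above every other ligand of its family. Of 21 others, 17 were listed and 5 tested, with 0 at an unadjusted p under 0.05 and a median of 0.073 (-0.0077 without irradiated library 2). Fgf9, the highest, had a mean of 1.98 TPM, and Fgf7 and Fgf1 had means of 1.05 and 0.945 TPM. Fgf7 and Fgf10 had the smallest p (0.206 and 0.265). Receptors of FGF8 were scarce: Fgfr2 lay between 1.43 and 2.00 TPM, Fgfr1 between 0.43 and 0.86 TPM, and Fgfr3 had 0, 0, 1 and 0 counts. Spry1 and Spry4, feedback inhibitors of receptor tyrosine kinases, were the highest of the 12 receptor and feedback genes tested, at means of 24.2 and 15.4 TPM, and Spred2 had a mean of 4.63 TPM. The median log2 fold change of the 12 was 0.038, and 0.12 without irradiated library 2. Frs3, an adaptor that links FGF receptors to downstream kinases, was the 1 gene of this list at an unadjusted p under 0.05. It had 0 and 1 counts in the control and 32 and 35 in the irradiated libraries, at least 10.7-fold higher after scaling against a floor of 3 counts per library. Both irradiated libraries were above both controls, and the test gave an unadjusted p of 0.000104 (edgeR adjusted p = 0.652). Frs3 passed both limits with no filter on low counts (edgeR adjusted p = 0.0273). Its log2 fold change was 5.62, and 5.70 without irradiated library 2. It lay between 4.73 and 8.04 with 1 library left out, against control counts of 0 and 1. Its homologue Frs2 had the second smallest p, with a log2 fold change of -0.54 (SE 0.235, unadjusted p = 0.0560), and -0.41 without irradiated library 2.

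On the KIT side, 36 genes of the ligand and the pathway were listed and 34 tested, with 1 higher and 1 lower at an unadjusted p under 0.05 and a median log2 fold change of -0.10 that turned to 0.019 without irradiated library 2. The message of the ligand, Kitl, was itself found at 1.78 and 2.07 TPM in control and 1.65 and 1.45 TPM in irradiated libraries, far below Kit. The log2 fold change of Kitl was -0.45 (SE 0.192, unadjusted p = 0.0518, edgeR adjusted p = 0.708) and -0.27 without irradiated library 2, and both irradiated libraries were below both controls. Kitl is a granulosa product and is itself 1 of the 9 granulosa markers listed. Their mean levels ran from 0.0175 TPM (Inhba) to 9.53 TPM (Cyp19a1), and the source of the Kitl reads was not tested. Pik3r1 and Pik3r2, regulatory subunits of PI3K, were the 2 genes at an unadjusted p under 0.05. Pik3r1 was at 6.04, 7.18, 5.72 and 5.62 TPM (log2 fold change -0.43, SE 0.174, unadjusted p = 0.0435). Pik3r2 was at 0.50, 0.91, 1.21 and 1.44 TPM (log2 fold change 0.70, SE 0.292, unadjusted p = 0.0493). Neither passed adjustment (edgeR adjusted p = 0.708 for both). Without irradiated library 2 the log2 fold changes were -0.23 for Pik3r1 and 0.78 for Pik3r2. Mapk3, a kinase below RAS, was the most abundant gene of the pathway at 116, 130, 141 and 225 TPM, followed by Foxo3, the transcription factor held in check by KIT and PI3K, at 56.2, 56.2, 67.0 and 53.6 TPM, and by Nras with a mean of 39.5 TPM.

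**Figure D4:**
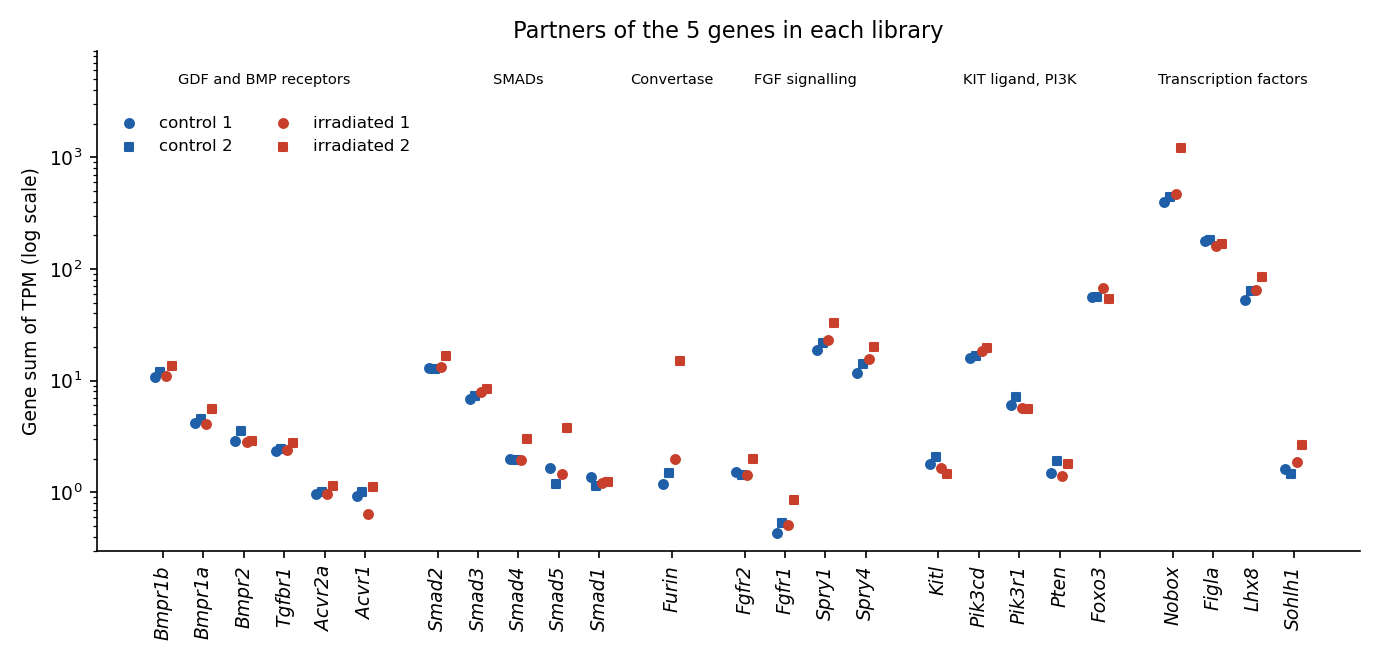
Level of selected partners of the 5 genes as the gene sum of TPM on a log axis, grouped by role, with 1 point per library, control libraries in blue and irradiated libraries in red. The GDF and BMP receptors lie below 14 TPM, and the points of irradiated library 2 for Furin (14.98 TPM) and Nobox (1215 TPM) lie far above those of the other 3 libraries.

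Transcription factors of the oocyte program, several of which are known to be needed for expression of Gdf9, Bmp15 or Kit, numbered 12 and were all tested. Nobox, a homeobox factor for oocyte genes, was at 398 and 440 TPM in control and 468 and 1215 TPM in irradiated libraries. Irradiated library 2 was again alone. For Nobox the log2 fold change was 0.71 (SE 0.330, unadjusted p = 0.0691) and 0.14 without that library, in which the levels of Gdf9 and Bmp15 were the lowest of the 4. Figla, which directs the zona genes, was at 178, 180, 159 and 166 TPM, and Lhx8 at 52.8, 63.1, 65.2 and 85.3 TPM. Sohlh1 lay between 1.45 and 2.68 TPM. Pou5f1, the 1 gene of the list at an unadjusted p under 0.05, was at 5.83, 5.58, 6.57 and 22.8 TPM (log2 fold change 1.05, SE 0.408, unadjusted p = 0.0372), and 0.18 without irradiated library 2. The median log2 fold change of the list was 0.19, and -0.027 without irradiated library 2. Over the 10 oocyte markers, which include Gdf9 and Bmp15, the median was -0.18 and 0.0023 without that library. Zp3 was at 10914, 11773, 11548 and 15620 TPM and Zp2 at 4290, 4452, 4115 and 1937 TPM, so that the most abundant oocyte messages did not all move one way in irradiated library 2. Oosp1 and Dazl had the smallest p of the markers (0.150 and 0.139).

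Genes that the ligands are known to raise in cumulus cells were largely silent in these denuded oocytes. Of 15, 12 were listed and 8 tested, with 0 at an unadjusted p under 0.05 and a median of 0.046 (0.080 without irradiated library 2). Has2 and Tnfaip6, which build the expanding cumulus matrix, had 2 counts or fewer in every library, and Ptgs2 had between 10 and 23. The glycolytic genes Aldoa and Eno1 were the highest, with means of 57.2 and 44.5 TPM, and Idi1 of cholesterol synthesis had a mean of 13.3 TPM. Idi1 and Aldoa had the smallest p (0.0619 and 0.0718), with log2 fold changes of -0.46 and 0.35, and of -0.18 and 0.17 without irradiated library 2.

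The genes whose levels ran closest to each of the 5 over the 4 libraries were found by the root mean square difference in log2(TPM + 1), which is smallest where both the level and its course over the libraries are alike. With 4 libraries this is a description only. For Gdf9 the nearest were Sod1 (0.14) and Sap18b (0.17), and for Bmp15 they were Orc5 (0.079) and Ccdc6 (0.14). All 4 had their lowest TPM in irradiated library 2. For Fgf8 they were Alkbh5 (0.090) and H13 (0.096), and for Bmp6 they were Lrrc47 (0.040) and Edc4 (0.041). All 4 of these had their highest TPM in irradiated library 2, as Fgf8 and Bmp6 had. For Kit the nearest were Rsrp1 (0.058) and Tmem131l (0.065).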

How the data were processed

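RNA-seq was analysed in 4 libraries of GV stage oocytes, 2 control and 2 irradiated, grouped by the sample titles. The authors sequenced oligo(dT)-selected RNA as paired-end reads of 100 bp, aligned them after quality trimming to GRCm38 (Bowtie2), and deposited estimated counts and TPM values per RefSeq transcript. HISAT2 and RSEM are also named in the submitters' processing notes, and whether counting used strand is not given in the sources used here, so reads from overlapping genes may not be separated. The estimated counts carry no scaling for library size. Left aside were 10 deposited columns that hold FPKM (4) or averages over a condition (6).

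Estimated counts were summed per gene ID, rounded, filtered (filterByExpr, minimum count 10), scaled by TMM and fitted with glmQLFit and glmQLFTest of edgeR 4.0.16 (R 4.3.3), with Benjamini-Hochberg adjustment over all 12569 genes or 26645 transcripts. Calls were made at adjusted p under 0.05 where the log2 fold change exceeded 2 in either direction. Transcript usage was tested with diffSpliceDGE and Simes' method. Ratios and shares, 9 in all, were compared by exact permutation over the 6 assignments of the libraries; after Benjamini-Hochberg adjustment none could pass, since the smallest raw p is 0.333. Wilson intervals are at 95%. RefSeq symbols and coordinates of GRCm38.p6 matched 17323 of 17374 gene IDs. Scripts were tested on simulated data. Alternatives were DESeq2 1.42.0, limma 3.58.1 (voom, and log2(TPM + 1) or log2(TPM + 0.1)), other scalings, no filter, each library left out and a replicate block. Transcript shares without each library were added after seeing the data. Replicates are independent experiments in the study's words.

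The 5 genes and all lists were chosen with earlier results of these data known, so no p is adjusted over a list alone. Named from each list were the 3 genes of highest mean TPM, the 2 of smallest unadjusted p, and the direct partners of the 5 genes; for likeness, the 2 nearest genes each.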

Additional observations from a re-analysis of the deposited data

How the results depend on the processing

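No alternative called any of the 5 genes past both limits. The calls over all genes, 1 in edgeR, were 0 with library size alone (586 at an unadjusted p under 0.05), 3 with no filter, 4 with DESeq2, 0 with limma-voom (629 unadjusted), 0 with limma on log2(TPM + 1) and on log2(TPM + 0.1) (372 and 409 unadjusted), 7 with the replicate block, and between 16 and 84 with 1 library left out. Transcript calls were 0 (1306 at an unadjusted p under 0.05) and 248 with DESeq2. Usage calls were 16, 58 with the F test, 0 with limma diffSplice (505 unadjusted), 3 with the replicate block, and between 1 and 29 with 1 library left out. Library size alone and TPM move the median log2 fold change of all genes to 0.17, and to 0.14 and 0.21 on the 2 TPM scales, from 0.010. The direction turned without irradiated library 2 for Gdf9 (0.26) and Fgf8 (-0.070, against 0.36 without irradiated library 1). For NM_001122733.1 it was 0.75 with irradiated library 2 left out and turned to -0.34 with irradiated library 1 left out. NM_001166361.1 turned with library size alone (0.14), without control library 2 (0.17) and without irradiated library 1 (0.20), and was -0.30 without irradiated library 2. Frs3 passed both limits with the replicate block (adjusted p 0.0126); its adjusted p lay between 0.0784 and 0.686 with the other scalings, DESeq2 and limma. The cause was not tested.

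Over 13 settings the log2 fold change ran from -0.80 to 0.26 for Gdf9, -0.81 to -0.0050 for Bmp15, -0.070 to 0.37 for Fgf8, 0.18 to 0.41 for Bmp6 and -0.48 to -0.066 for Kit. Counts per kilobase of annotated length gave levels of 7715 in control and 7693 in irradiated oocytes for Gdf9, 1670 and 1486 for Bmp15, 21.4 and 20.3 for Kit and 6.38 in control for Bmp6, and NM_ transcripts alone gave 94.4 TPM for Fgf8 in control. The order of the 5 genes held on every scale. The replicate numbers are shared between conditions, and the main fits did not treat the number as a pairing. Same-numbered libraries deviated together only weakly (correlation 0.098 for genes and 0.021 for transcripts). This correlation cannot decide whether the libraries are paired, because the difference between the irradiated libraries includes irradiated library 2, which stood apart. Whether same-numbered libraries come from the same experiment is not given in the sources used here.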
